A study of Mus musculus with 3 samples.

Results

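The 10 genes described here mark whether a cell sits in an epithelial sheet or moves as mesenchyme. They are the cadherins Cdh1, Cdh2 and Cdh11, the epithelial adhesion gene Epcam, the transcription factors Snai1, Snai2, Twist1, Zeb1 and Zeb2, and the intermediate filament gene Vim. They were chosen by symbol from the 31054 genes of the count tables, and all 10 were found and passed the filter on low counts. The cells came from 3 male mouse embryos of genotype WT on a C57BL/6 and 129 SvEv background, taken at embryonic day 8 with 0 to 1 somites by the protocol and 0 to 2 by the stage label. By the study's methods the extraembryonic tissue had been removed. Each embryo gave 1 single-cell RNA library made with 10x Genomics 3′ chemistry, in which each captured transcript carries a unique molecular identifier (UMI). There was no treated or mutant group, so the comparisons were between cell classes within the same 3 embryos.

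Cadherins are transmembrane proteins that hold neighbouring cells together through calcium-dependent contacts and bind catenins inside the cell. In gastrulation, epiblast cells lose E-cadherin, leave the epithelium through the primitive streak and often gain N-cadherin, a change that the Snail, Twist and Zeb transcription factors are known to drive by repressing epithelial genes. The left-right organizer (LRO), also called the node, is a small ciliated ventral pit in which flow sets the left-right axis, and its cells are epithelial and continuous with the axial mesoderm and the endoderm.

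Snail and Zeb proteins bind E-boxes with the letters CACCTG or, on the other strand, CAGGTG. Of the 10 genes, 5 had an entry in the RefSeq promoter table (GRCm38.p6), and the 250 bases before the annotated start are shown for 3 of them, 5′ to 3′ on the plus strand. They are shown as the upstream letters of an epithelial adhesion gene, Epcam, and of transcription factors of mesenchyme, Snai1 and Twist1. Over the cell classes described below, Epcam ran opposite to Twist1 (Pearson's r = -0.89) and more weakly so to Snai1 (-0.58). Capitals mark the E-boxes, read on both strands and counted with the last base before the start as -1. The windows are chr17:87635729-87635978 for Epcam, chr2:167537945-167538194 for Snai1 and chr12:33957421-33957670 for Twist1.
Epcam: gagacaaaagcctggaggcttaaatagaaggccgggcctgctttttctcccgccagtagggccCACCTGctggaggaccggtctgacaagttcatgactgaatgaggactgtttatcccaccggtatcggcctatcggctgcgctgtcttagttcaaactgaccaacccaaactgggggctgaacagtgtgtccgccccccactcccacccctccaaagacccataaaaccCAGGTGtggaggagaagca
Snai1: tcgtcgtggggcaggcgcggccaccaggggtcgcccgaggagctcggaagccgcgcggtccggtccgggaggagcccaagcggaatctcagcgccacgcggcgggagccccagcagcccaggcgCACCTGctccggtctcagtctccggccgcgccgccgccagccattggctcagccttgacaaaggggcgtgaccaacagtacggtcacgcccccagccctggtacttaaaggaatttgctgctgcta
Twist1: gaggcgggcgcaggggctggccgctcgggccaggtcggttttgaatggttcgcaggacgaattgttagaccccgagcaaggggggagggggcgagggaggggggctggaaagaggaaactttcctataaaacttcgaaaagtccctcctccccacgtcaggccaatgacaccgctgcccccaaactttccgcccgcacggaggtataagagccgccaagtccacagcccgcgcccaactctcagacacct
The Epcam window held 2 boxes, which began at -187 and -19. The Snai1 window held 1, which began at -126, and the Twist1 window held 0. Among 32851 promoter windows of the same length, 17.2% held at least 1 box and 2.06% held at least 2. Of the other members with an entry, the 4 windows of Zeb2 and the window of Vim, not printed, held 0 boxes. These matches describe the letters in the windows and were not tested as binding sites.

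The 3 libraries held 23533 cell barcodes, of which 21595 were kept, 5795, 7956 and 7844 in embryos 1, 2 and 3. The median UMI count per kept cell was 27635, 14615 and 16332.5, so embryo 1 was the deepest. Between 18 and 22 barcodes were shared by any pair of libraries. Cells were put into 16 classes by 5 marker genes each, none of them among the 10 genes, with at least 3 of the 5 detected, and the classes are called by the name of their list with "-like". Of the kept cells, 10515 met a single list, 8271 met several and were given the class with the highest marker score, and 2809 met none. Of 14 lists, 10 had all 5 markers highest in their own class. For the other 4 lists 3 or 4 of the 5 were (caudal epiblast, axial mesoderm, definitive endoderm, lateral and extraembryonic mesenchyme). Cells were assigned by these same markers, so this describes the assignment and is not independent evidence for the classes. The lateral and extraembryonic mesenchyme-like class is called lateral mesenchyme-like for short, and its lateral and extraembryonic cells were not told apart. Levels are UMIs of a gene per 1000000 UMIs (CPM) over the summed cells of a class in an embryo, with the embryo as the replicate (n = 3) and the SD taken over embryos. The neural plate border-like class, with 5 to 14 cells an embryo, and the erythroid-like class, with 2 cells in embryo 1, were left out of tests, which left 14 classes. Despite the removal of extraembryonic tissue, 299, 1297 and 1042 cells of embryos 1, 2 and 3 were extraembryonic endoderm-like. An average over a class cannot tell fewer cells with a transcript from less transcript per cell.

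Among the 14 classes, Cdh1, which encodes E-cadherin of epithelial adherens junctions, was highest in definitive endoderm-like cells, at 148.4, 95.31 and 106 CPM in embryos 1, 2 and 3. Axial mesoderm-like cells had 103.7, 85.42 and 100.4 CPM, and LRO-like cells 108.5, 47.51 and 70.91 CPM. The ranges of these 3 classes overlapped, and embryo 2 was the lowest in each. Extraembryonic endoderm-like (70.9 ± 9.66 CPM, SD, n = 3), caudal epiblast-like (55.7 ± 15.7), surface ectoderm-like (51.4 ± 12.9) and neural plate-like cells (44.9 ± 9.74) followed, each overlapping its neighbour in the order. Below them the embryos no longer overlapped: presomitic mesoderm-like cells had 23.4, 15.26 and 32.28 CPM, and the other mesodermal classes lay between 6.79 and 16.2 CPM. The gene was lowest in endothelium-like cells (5.89 ± 2.93). In allantois-like cells the mean of 6.79 CPM became 2.39 when the cells with the highest 6% of doublet scores were left out.

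After each cell was thinned to 5000 UMIs, 44.3% ± 8.94 of definitive endoderm-like cells and 36.1% ± 16.9 of LRO-like cells had a Cdh1 UMI. Cells with fewer than 5000 UMIs were left out of all thinned values. In erythroid-like cells, taken as a background without a test that they lack the gene, the share was 0.726% ± 0.631. This mean counts embryo 1, with 0% of only 2 cells, and the share was 1.04% and 1.14% in embryos 2 and 3. The median depths before thinning were 20816 UMIs in definitive endoderm-like, 25156 in LRO-like and 15828 in erythroid-like cells. Allantois-like cells, at 1.85% ± 0.823, were the nearest to that background.

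Cdh2, which encodes N-cadherin of neural, mesodermal and cardiac cells, had another order. It was highest in LRO-like cells, at 110.5, 100.4 and 70.12 CPM, beside 79.94, 100.7 and 69.89 CPM in axial mesoderm-like cells and 87.65, 81.44 and 64.99 CPM in presomitic mesoderm-like cells. These classes overlapped, and embryo 3 was the lowest in each. Allantois-like cells had 73.7 ± 2.13 CPM, apart from caudal epiblast-like cells (52.1 ± 9.06). Paraxial, cranial and cardiac mesoderm-like and lateral mesenchyme-like cells lay between 42.8 and 51.4 CPM and neural plate-like cells at 34.9 ± 8.23. The low end was epithelial, with 15.8 ± 3.15 CPM in surface ectoderm-like, 12.4 ± 1.96 in definitive endoderm-like and 5.89 ± 1.4 in extraembryonic endoderm-like cells, and the last was apart from the rest in all 3 embryos. The thinned share of cells with a Cdh2 UMI was 43.7% ± 11.8 in LRO-like and 1.18% ± 1.03 in erythroid-like cells. The erythroid-like share was 0% of 2 cells in embryo 1 and 1.63% and 1.90% in embryos 2 and 3.

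Cdh11, a cadherin of loose mesenchyme, was highest in cranial mesoderm-like cells (93.72, 82.16 and 66.32 CPM), with every embryo above the lateral mesenchyme-like (58.8 ± 4.57) and allantois-like classes (54.2 ± 9.3). Paraxial mesoderm-like cells had 39.4 ± 7.18 CPM, apart from both neighbours in the order. LRO-like cells had 20, 25.29 and 17.13 CPM, the highest among the classes of the epithelial group, and definitive endoderm-like cells had 4.13 ± 0.502. Over its whole gene span Cdh11 overlaps 4 other annotated genes on its strand, while Cdh1 and Cdh2 overlap none on theirs. The effect of these overlaps on the Cdh11 counts was not tested. In the genome (GRCm38, GENCODE vM21), Cdh1 lies at chr8:106603351-106670246 on the plus strand and Cdh11 at chr8:102632095-102785642 on the minus strand.

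**Figure D1:**
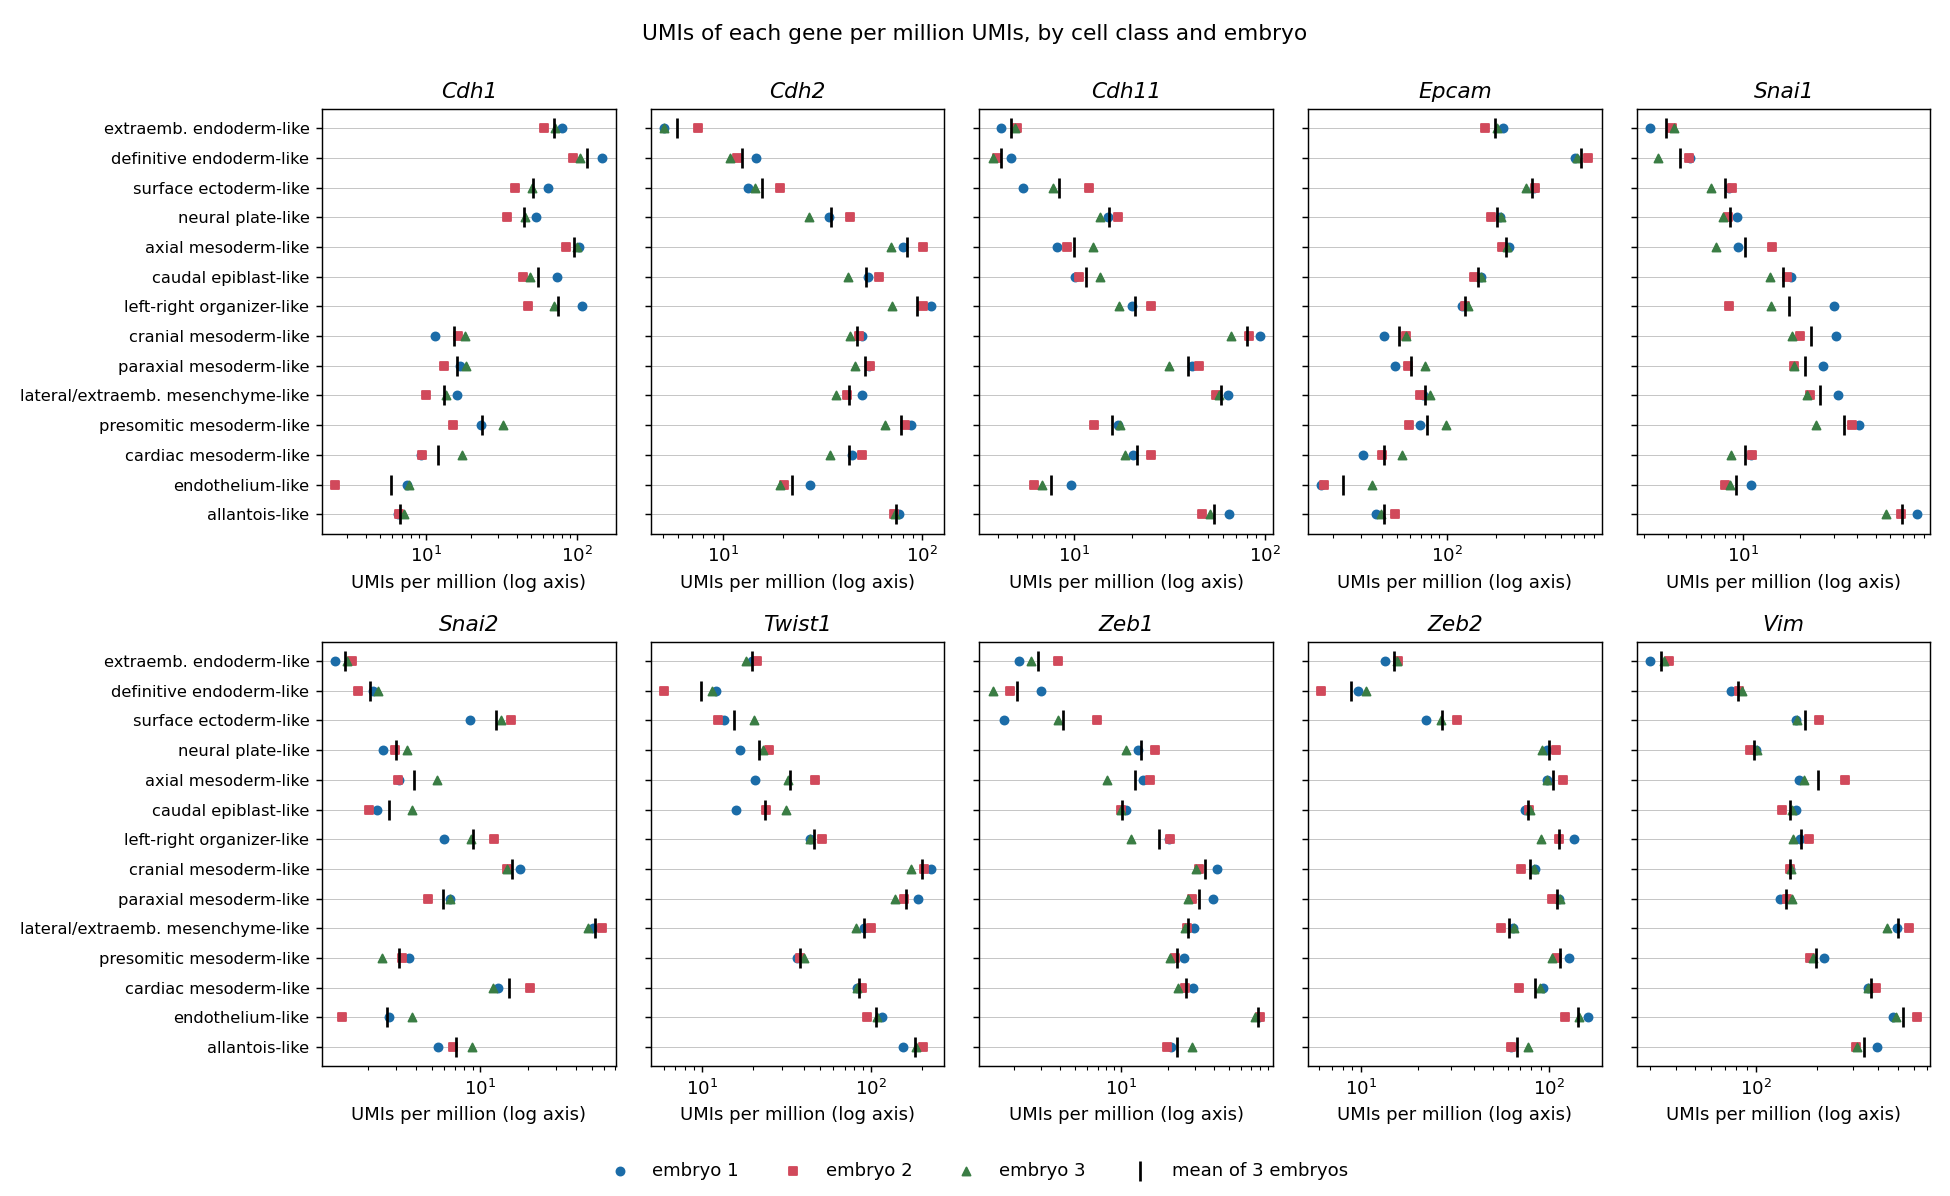
Levels of the 10 genes (CPM, log axis) in the 14 tested classes, with a point for each of the 3 embryos and a tick at their mean. Cdh1 and Epcam were highest in definitive endoderm-like cells (117 and 663 CPM on average), Snai1 in allantois-like cells (69.4 CPM), Twist1 in cranial mesoderm-like cells (202 CPM), and Zeb1 and Zeb2 in endothelium-like cells (77.2 and 142 CPM).

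The share of Cdh1 among the UMIs of Cdh1 and Cdh2 together places each class between the 2 cadherins. Capture efficiency may differ between the transcripts, so the share was compared between classes and not read as a ratio of proteins. Cdh1 made up 94%, 89% and 93.4% of these UMIs in extraembryonic endoderm-like cells and 91%, 89% and 90.7% in definitive endoderm-like cells. Surface ectoderm-like cells were lower, at 82.9%, 66.9% and 77.6%. Every embryo of the endodermal classes was above every embryo of the surface ectoderm-like class. With only cells that met a single list, surface ectoderm-like cells were at 89.2% ± 2.5, near the definitive endoderm-like values above. Extraembryonic endoderm-like cells were at 97.2% ± 0.671 in that setting.

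Neural plate-like (56.2% ± 10.2), axial mesoderm-like (53.8% ± 6.93), caudal epiblast-like (51.3% ± 8.24) and LRO-like cells (44% ± 10.3) split these UMIs nearly evenly, and their embryos overlapped. The 5 classes of the mesenchymal group lay between 8.45% and 24.7%, against 44% to 92.1% in the 6 classes of the epithelial group. Allantois-like cells had the lowest share (8.45% ± 0.499), and it was 2.99% without the highest doublet scores. Embryo 2 had the lowest share in 12 of the 14 classes, LRO-like cells included.

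**Figure D2:**
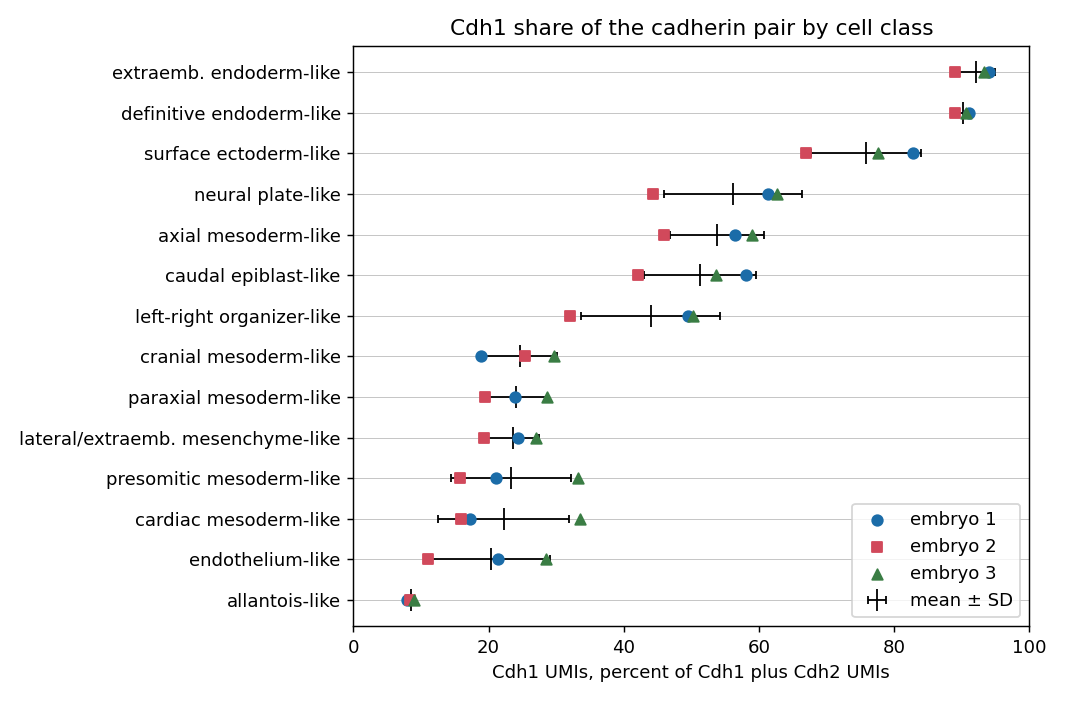
Share of Cdh1 among Cdh1 and Cdh2 UMIs (percent) in each tested class, with a point for each embryo and a tick and bar for mean ± SD. The classes run from 92.1% in extraembryonic endoderm-like to 8.45% in allantois-like cells, and LRO-like cells sit at 44%, with embryo 2 at 32.1% below embryos 1 and 3 at 49.5% and 50.3%.

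The 211 LRO-like cells (64, 63 and 84 in the 3 embryos) carried 217, 62 and 178 Cdh1 UMIs and 221, 131 and 176 Cdh2 UMIs. Every one of these cells also met another list, most often axial mesoderm (91.9%), whose list shares Noto with theirs, then caudal epiblast (30.8%), neural plate (27.5%) and presomitic mesoderm (25.6%). At full depth 66.2% of them held both transcripts, 20.6% Cdh2 alone, 6.34% Cdh1 alone and 6.88% neither. Thinning to 5000 UMIs left out shallower cells, so 64, 55 and 82 LRO-like cells remained in the 3 embryos. Of these thinned cells 15.8% ± 12.5 held both, beside 16.8% ± 12.1 from the product of the 2 single shares. The values for both transcripts in a cell were 29.7%, 5.45% and 12.2% in the 3 embryos, so the spread over embryos was wide. In axial mesoderm-like cells 15% ± 5.9 held both and the product was 15.7% ± 6.05. On average over embryos, the 2 cadherins occurred together in the midline classes about as often as their separate shares gave. Single embryos lay on both sides of the product. In embryos 1, 2 and 3 the products were 30.8%, 9.12% and 10.4% in LRO-like cells. Axial mesoderm-like cells held both in 8.7%, 15.8% and 20.4%, against products of 10.6%, 22.4% and 14.2%.

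**Figure D3:**
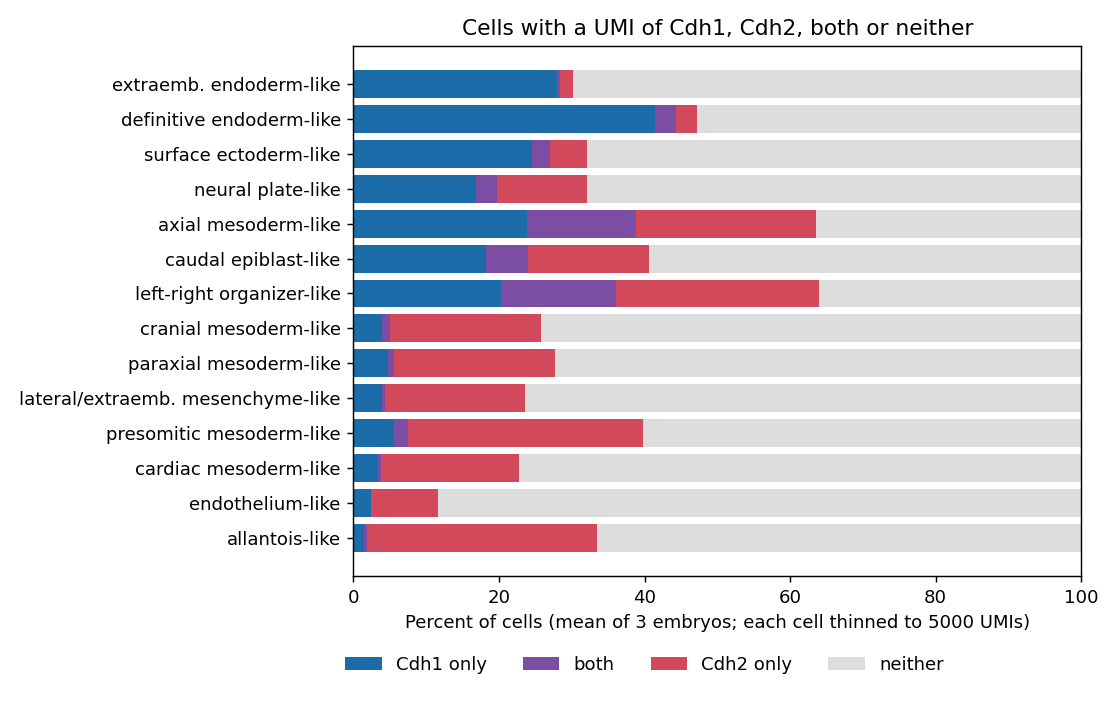
Percent of cells with Cdh1 only, both, Cdh2 only or neither transcript after thinning to 5000 UMIs, as the mean over 3 embryos in each tested class. LRO-like and axial mesoderm-like cells held both in 15.8% and 15% of cells, neural plate-like cells in 2.79%.

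Epcam, an adhesion protein of epithelia, was highest in definitive endoderm-like cells, at 615.9, 740.9 and 633.1 CPM. Surface ectoderm-like cells had 345, 348.4 and 306.8 CPM and axial mesoderm-like cells 242.3, 217.6 and 233.9 CPM. These 3 classes were apart from each other in every embryo. Neural plate-like (204 ± 15.8) and extraembryonic endoderm-like cells (199 ± 25.6) overlapped, caudal epiblast-like cells had 157 ± 9.12, and LRO-like cells had 123.5, 130.3 and 134.7 CPM, the lowest in the epithelial group and apart from both neighbours. All embryos of the mesodermal classes other than axial mesoderm lay at or below 98.66 CPM. Erythroid-like cells had 17 ± 7.53 CPM, with only 2 cells in embryo 1.

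Snai1, a zinc finger repressor of Cdh1 active in gastrulation, was highest in allantois-like cells, at 83.01, 68.09 and 57.09 CPM, above every embryo of presomitic mesoderm-like cells (41.04, 37.68 and 24.08). LRO-like cells had 29.99, 8.43 and 13.94 CPM, a spread that covered several classes. Definitive (4.64 ± 0.943) and extraembryonic endoderm-like cells (3.89 ± 0.588) were lowest. Its relative Snai2, known from neural crest and mesenchyme, had a narrow pattern. It had 51.25, 58.39 and 47.45 CPM in lateral and extraembryonic mesenchyme-like cells, against 15.8 ± 1.78 in cranial mesoderm-like cells, the next class. No embryo of any other tested class was above 20.59 CPM, and definitive and extraembryonic endoderm-like cells had 2.05 ± 0.301 and 1.43 ± 0.171 CPM.

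Twist1, a helix-loop-helix factor of head and somite mesenchyme, was highest in cranial mesoderm-like cells (226.9, 204.8 and 173.4 CPM), with allantois-like (182 ± 24.4) and paraxial mesoderm-like cells (162 ± 25.2) overlapping them. Presomitic mesoderm-like cells had 38.3 ± 1.91 CPM, just below LRO-like cells at 46.2 ± 4.44, and the 2 classes did not overlap. In cells thinned to 5000 UMIs the 2 classes were closer, at 31.3 ± 2.48 and 34.1 ± 5.94 CPM. Axial mesoderm-like cells had 33.2 ± 13.1 CPM, overlapping presomitic mesoderm-like cells, and definitive endoderm-like cells had the lowest level (9.87 ± 3.37).

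The Zeb genes encode zinc finger and homeodomain repressors, and both were highest in endothelium-like cells. Zeb1 had 78.77, 79.28 and 73.55 CPM there, apart from cranial mesoderm-like cells (34.8 ± 5.84). It had 17.6 ± 5.22 in LRO-like and 2.11 ± 0.791 in definitive endoderm-like cells. Zeb2 was broad. It had 161.1, 120.4 and 143.2 CPM in endothelium-like cells, and presomitic (113 ± 12.1), LRO-like (135.5, 111.9 and 90.43), paraxial (110 ± 5.83), axial (104 ± 12.2) and neural plate-like cells (99.1 ± 8.8) formed an overlapping series below. Surface ectoderm-like (27 ± 5.09), extraembryonic endoderm-like (14.9 ± 1.3) and definitive endoderm-like cells (8.83 ± 2.35) were each apart from the class above. Erythroid-like cells held 67.31 and 68.57 CPM of Zeb2 in embryos 2 and 3, so this class gave no background for Zeb2. Zeb1 and Zeb2 each overlap 1 annotated gene on their strand.

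Vim, the intermediate filament protein of mesenchymal and many other cells, was highest in endothelium-like (473.8, 624.6 and 491.7 CPM) and lateral mesenchyme-like cells (497.4, 568.4 and 445.4 CPM), which overlapped each other and were apart from the rest. Surface ectoderm-like cells had 174 ± 26.6 CPM and LRO-like cells 167 ± 14.4, above cranial (148 ± 1.36) and paraxial mesoderm-like cells (141 ± 9.54) on average. The low end was neural plate-like (97.9 ± 4.37), definitive endoderm-like (80.9 ± 5.29) and extraembryonic endoderm-like cells (34.1 ± 3.66). The epithelial and mesenchymal groups overlapped for Vim.

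The epithelial group was fixed as surface ectoderm, neural plate, caudal epiblast, LRO, definitive endoderm and extraembryonic endoderm. The mesenchymal group was fixed as presomitic, paraxial and cranial mesoderm, lateral and extraembryonic mesenchyme, and allantois. Axial mesoderm, cardiac mesoderm and endothelium were in neither. Among these 6 epithelial and 5 mesenchymal class means, 4 genes left no overlap between the groups. These were Cdh1 (44.9 to 117 against 6.79 to 23.6 CPM), Epcam (129 to 663 against 41.6 to 75.6), Snai1 (3.89 to 17.5 against 21.1 to 69.4) and Zeb1 (2.11 to 17.6 against 22.8 to 34.8). Cdh2, Cdh11, Snai2, Twist1, Zeb2 and Vim overlapped. The share of all genes whose groups did not overlap in this way was not computed, so this split has no background beside it. The separation of Snai1 and Zeb1 held for class means only. By embryo, LRO-like cells overlapped paraxial mesoderm-like cells for Snai1 and presomitic mesoderm-like cells for Zeb1. Of the classes in neither group, cardiac mesoderm-like (10.2 CPM) and endothelium-like cells (9.15 CPM) lay within the epithelial range for Snai1. LRO-like cells had the highest mean of the epithelial classes for Cdh2, Cdh11, Snai1, Twist1, Zeb1 and Zeb2. For Snai1 this rank needed embryo 1, since without it LRO-like cells had 11.2 CPM and caudal epiblast-like cells 15.4 CPM, and it was also lost in cells thinned to 5000 UMIs (10.1 against 18 CPM). For Cdh11 it was lost with classes set on thinned cells (12.9 against 17.2 CPM in neural plate-like cells), and for Zeb1 in thinned cells (12.1 against 12.8 CPM in neural plate-like cells).

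For tests between classes, UMI sums of 14 classes in 3 embryos were fitted in edgeR (quasi-likelihood), with Benjamini-Hochberg adjustment over 13945 genes, and a call is an adjusted p below 0.05. The sums of different classes come from the same 3 animals, and the main fit had no term for the embryo. Its estimate of the spread was shared over all classes. The p-values therefore measure the spread between sums of these embryos, and not the spread among the classes of a group. In the mean of 6 epithelial against 5 mesenchymal classes, 50.9% of all genes tested were called, 26% higher and 24.9% lower in the epithelial classes, and all 10 genes were called, 2 higher and 8 lower. Cdh1 averaged 88.3, 53.6 and 65.7 CPM over the epithelial and 14.9, 12.3 and 18 CPM over the mesenchymal classes, and was higher by 2.27 on the log2 scale (SE 0.118, adjusted p = 4.45e-18). Epcam was higher by 2.04 (SE 0.0813, adjusted p = 3.14e-21). The fold for Twist1 was -2.48 on the log2 scale (SE 0.0861), that for Cdh11 -2.25, for Zeb1 -2.13, for Snai1 -1.85, for Snai2 -1.45, for Cdh2 -1.21, for Vim -1.17 and for Zeb2 -1.12. The directions and calls of all 10 held under each alternative run. With only cells that met a single list, no LRO-like class was left and allantois-like cells were too few in an embryo. Both classes dropped out of the group means. In that setting the log2 folds of 9 genes were larger by over 1.5 times in fold. Examples were 3.15 for Cdh1, 3.11 for Epcam, -4.15 for Cdh11 and -2.16 for Cdh2. The part of the missing classes in these folds was not tested. Without the highest doublet scores Cdh11 was at -2.88.

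The related lists are described by their counts and medians, and the median log2 fold of all genes tested was 0.01. All 19 junction and keratin genes tested were higher in epithelial classes, with a median log2 fold of 1.96, among them the claudins Cldn6 (3.13) and Cldn7 (2.77), the polarity gene Crb3 (2.78) and the tight junction gene Ocln (2.72). All 7 epithelial regulators were higher (median 1.61), among them Ovol1 (3.11), a repressor of mesenchymal genes, and the splicing factor Esrp1 (2.23). Of 16 matrix and surface genes of mesenchyme, 14 were lower (median -1.05) and 1, Sparc, which encodes a matrix protein, was higher (0.45), with Col1a1 at -2.21 and Pdgfra at -1.65. Of 6 mesenchymal regulators tested, 5 were lower (median -1.26), with Mesp1 at -1.90, and Eomes, which is also an endoderm and epiblast factor, was higher (1.14). Of 5 other cadherins tested, 3 were higher (Cdh3 0.85, Cdh6 0.77, Cdh10 0.51), as were 2 of 6 catenins, among them Jup (1.16).

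**Figure D4:**
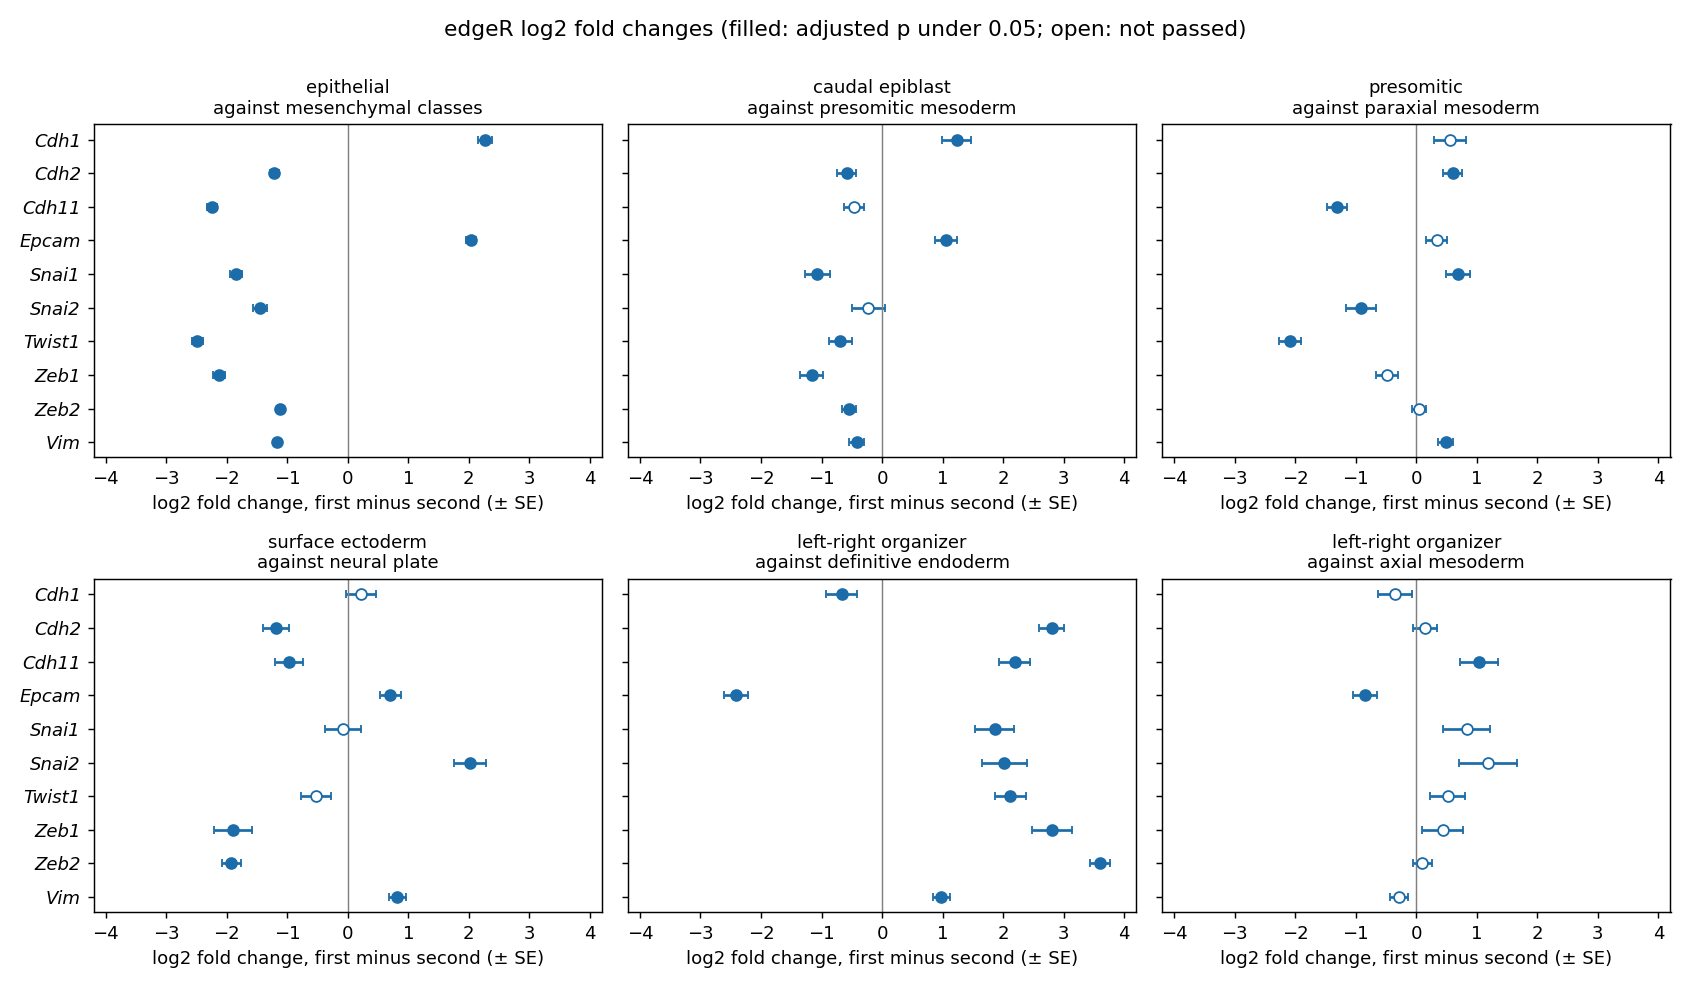
Log2 fold changes of the 10 genes in the 6 comparisons, first class minus second, as points with bars of 1 standard error. Filled points were called at an adjusted p below 0.05, and the 6 comparisons called 10, 8, 6, 7, 10 and 2 of the genes.

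The step from caudal epiblast to presomitic mesoderm is the passage from an epithelium to ingressed mesoderm. Of all genes tested, 5.82% were called, 2.89% higher and 2.93% lower in caudal epiblast-like cells, against 8 of the 10 genes, 2 higher and 6 lower. Cdh1 had 73.65, 44.12 and 49.45 CPM in caudal epiblast-like cells, all above the presomitic values given earlier, and was higher by 1.23 on the log2 scale (SE 0.245, adjusted p = 0.000778). Epcam was higher by 1.06 (SE 0.179, adjusted p = 9.57e-05). On the presomitic side, Zeb1 (log2 fold -1.16, adjusted p = 7.89e-05), Snai1 (-1.07, adjusted p = 0.000511), Zeb2 (-0.55, adjusted p = 0.00283), Cdh2 (-0.58, adjusted p = 0.0179), Twist1 (-0.69, adjusted p = 0.0208) and Vim (-0.42, adjusted p = 0.0413) were higher. Cdh11 (-0.46) and Snai2 (-0.23, 95% interval -0.77 to 0.32) did not pass, with adjusted p = 0.124 and 0.881. Snai2 was at 0.10 without embryo 1 and at 0.53 with classes set on thinned cells. With the embryo as a block, Cdh11 passed (adjusted p = 0.038).

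Several of these calls were lost with 2 embryos in the fit, while the log2 folds stayed on the same side at 0.94 to 1.58 for Cdh1, -0.67 to -0.51 for Cdh2, -0.93 to -0.49 for Twist1, -0.63 to -0.44 for Zeb2 and -0.46 to -0.40 for Vim. Leaving out an embryo also lowered the number of genes called from 811 to between 335 and 519. Without embryo 1, Cdh1 (adjusted p = 0.0874), Cdh2 (0.313), Twist1 (0.196), Zeb2 (0.133) and Vim (0.205) were lost. Without embryo 2, Cdh2 (0.0517) and Twist1 (0.142) were lost, and without embryo 3, Vim (0.242). With 4 of 5 markers required, Twist1 (0.346) and Vim (0.146) did not pass, and with classes set on thinned cells Twist1 did not (0.0946). With only cells that met a single list, the log2 folds grew to 2.26 for Cdh1, 2.03 for Epcam, -2.43 for Snai1, -1.84 for Zeb1 and -1.32 for Twist1, and Cdh11 passed at -1.19 (adjusted p = 0.0193).

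Of the related genes, 5 of 19 junction and keratin genes were higher in caudal epiblast-like cells (median over the list 0.84, over all genes 0.00), among them Cldn3 (1.63) and Ocln (1.59). So were 2 of 7 epithelial regulators, Ovol1 (3.12) and Esrp1 (1.49). Of 16 matrix and surface genes, 6 were lower there (median -0.40), led by the receptor Pdgfra (-1.39), the collagen Col1a2 (-1.10) and fibronectin Fn1 (-0.98). Of the mesenchymal regulators, the Wnt effector Lef1 was lower (-0.79).

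On average over embryos, cells that met both lists fell between the 2 ends for every gene but Snai2. Snai2 had 2.16 CPM with the caudal epiblast list only, 3.36 with both and 3.08 with the presomitic list only. There were 346, 374 and 371 cells with the caudal epiblast list only, 510, 267 and 331 with both and 267, 208 and 224 with the presomitic list only. Their median depths were 19214, 26997.5 and 18523 UMIs. Here, only means without the other of these 2 lists, and the cells could also have met lists of other classes. Cdh1 went from 60.9 ± 18.6 to 36.1 ± 8.51 and 16.9 ± 6.57 CPM, and Epcam from 183 ± 18 to 98.3 ± 17.4 and 60.1 ± 18.1 CPM. Cdh2 went from 47 ± 8.83 to 67.9 ± 12.5 and 85.1 ± 10.4 CPM, Snai1 from 12.4 ± 0.855 to 27.3 ± 6.34 and 39.4 ± 13.2, and Zeb1 from 8.78 ± 0.479 to 17.2 ± 2.52 and 25.5 ± 2.29. These 5 genes, and also Cdh11 and Zeb2, kept 1 order across the 3 groups in all 3 embryos, highest at the caudal epiblast end for Cdh1 and Epcam and at the presomitic end for the other 5. Twist1 and Vim were ordered toward the presomitic end in 2 of 3 embryos and Snai2 in 0 of 3. The middle group pooled cells of both classes and had no test of its own, and the part of this pooling in its levels was not tested. The share of all genes that kept 1 order in all 3 embryos was not computed. Cells with both lists were the deepest, and a list is met more easily in a deeper cell, so the part of depth in the middle group was not tested.

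**Figure D5:**
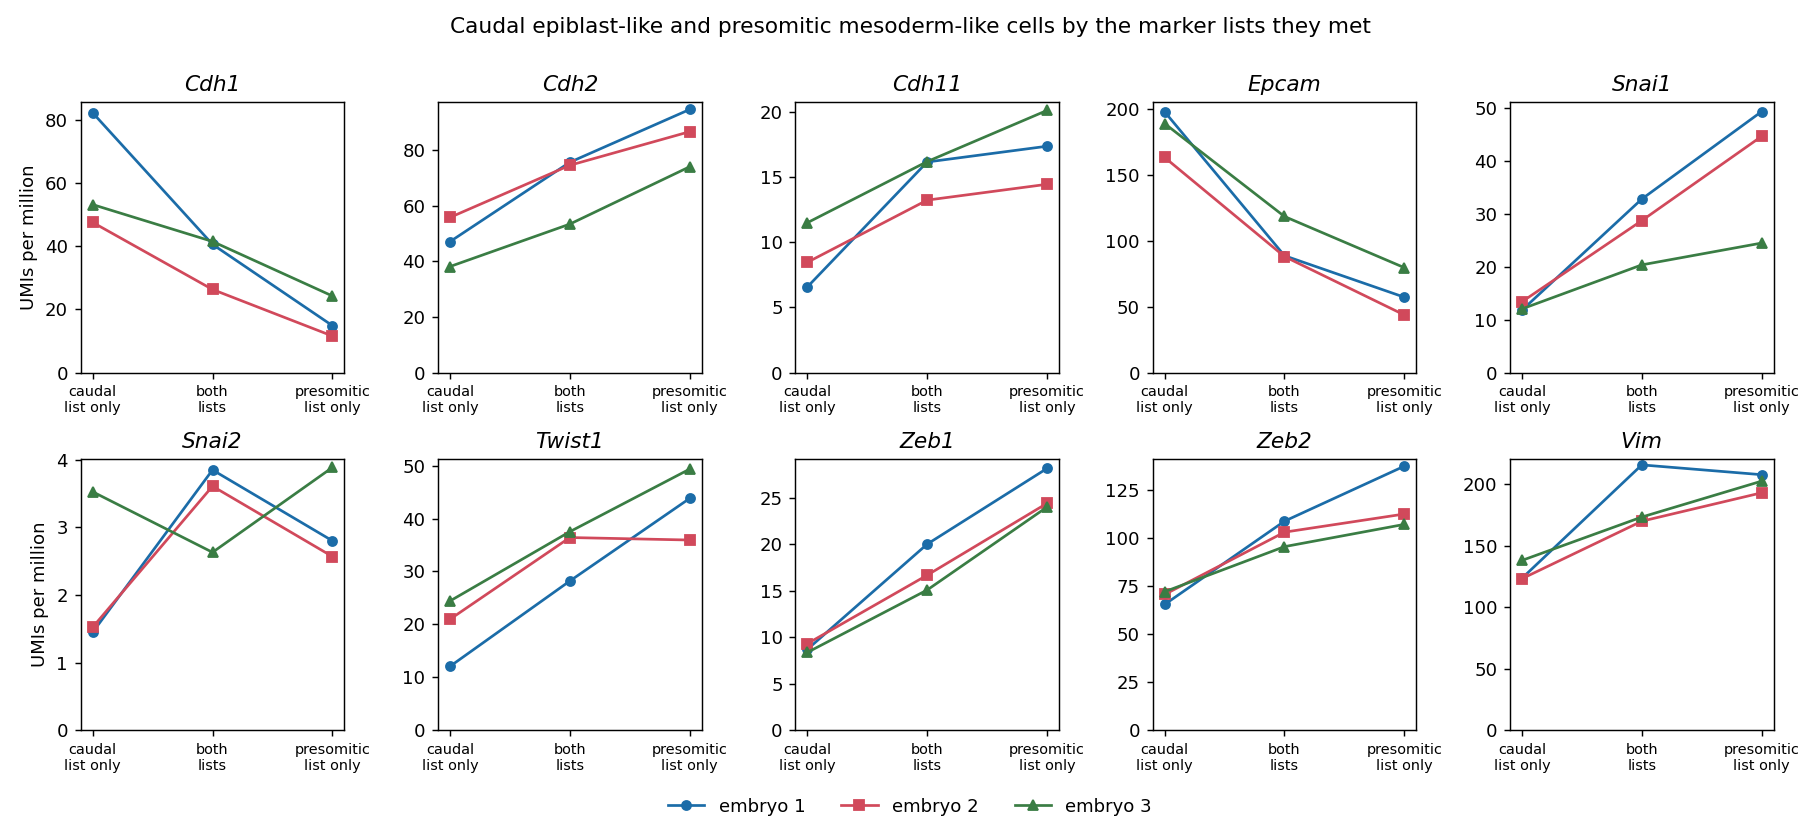
Levels (CPM) of the 10 genes in cells that met the caudal epiblast list only, both lists or the presomitic list only, with a line for each embryo. Lines slope down in all 3 embryos for Cdh1 and Epcam and up in all 3 for Cdh2, Cdh11, Snai1, Zeb1 and Zeb2.

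Presomitic mesoderm-like cells were also set against paraxial mesoderm-like cells. The paper uses the name paraxial mesoderm for somitic and head mesoderm together, and the embryos had 0 to 1 somites by the protocol. The share of segmented cells in the paraxial mesoderm-like class was not measured. Of all genes tested, 6.32% were called, 3.23% higher and 3.09% lower in presomitic mesoderm-like cells, against 6 of the 10 genes, 3 higher and 3 lower. Twist1 had 36.46, 38.31 and 40.27 CPM in presomitic and 188.8, 157.4 and 138.9 CPM in paraxial mesoderm-like cells, a log2 fold of -2.08 (SE 0.183, adjusted p = 2.41e-10) with no overlap. Cdh11 was also lower in presomitic cells (-1.31, adjusted p = 2.4e-07), as was Snai2 (-0.91, adjusted p = 0.0184). Cdh2 (0.60, adjusted p = 0.013), Vim (0.49, adjusted p = 0.0129) and Snai1 (0.69, adjusted p = 0.0299) were higher there. Cdh1 (0.56, 95% interval 0.05 to 1.07) and Zeb1 (-0.48, -0.83 to -0.13) missed the threshold, with adjusted p = 0.302 and 0.13, and passed with the embryo as a block (0.0391 and 0.0134), without the filter on low counts (0.0364 and 0.0398) and with classes set on thinned cells (0.0264 and 0.0453). Epcam (0.33, adjusted p = 0.444) passed in the last of these (0.0076). Zeb2 had 0.05 (-0.19 to 0.28), the narrowest interval of the genes that did not pass, and was at -0.015 without embryo 1.

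The calls of Cdh2, Snai1, Snai2 and Vim were lost in some fits with 2 embryos, with log2 folds of 0.55 to 0.64, 0.54 to 0.81, -1.04 to -0.71 and 0.38 to 0.56. Cdh2 was lost without embryo 1 (0.235) or 2 (0.0707), Snai1 without embryo 2 (0.49) or 3 (0.0853), and Snai2 and Vim without embryo 1 (0.147 and 0.246) or 3 (0.276 and 0.11). Snai1 (0.0558) and Snai2 (0.172) did not pass with 4 of 5 markers required, nor Snai2 with only cells of a single list (0.0566). In the last setting Twist1 reached -3.15, Snai2 -1.54 and Snai1 1.37, and with classes set on thinned cells Snai2 reached -1.63.

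Of 19 junction and keratin genes, the protease gene St14 (1.42) and the protease inhibitor Spint1 (0.79) were higher in presomitic cells (median over the list 0.04). Klf5 (2.01) was the only epithelial regulator of 7 that passed. Of 16 matrix and surface genes, 3 were lower (median -0.21; Tgfbi -1.31, Vcan -0.95, Sparc -0.58). Of the mesenchymal regulators, Prrx1 (-2.21) and Eomes (-1.70) were lower and Lef1 (0.67) higher, and of 6 catenins Ctnna2 was lower (-1.06).

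Surface ectoderm and neural plate are both ectodermal epithelia. Of all genes tested, 11.5% were called, 7.03% higher and 4.5% lower in surface ectoderm-like cells, against 7 of the 10 genes, 3 higher and 4 lower. Zeb2 had 22.06, 32.22 and 26.61 CPM in surface ectoderm-like and 96.8, 108.8 and 91.6 CPM in neural plate-like cells, a log2 fold of -1.92 (SE 0.152, adjusted p = 8.22e-12). Zeb1 (-1.90, adjusted p = 2.83e-05), Cdh2 (-1.19, adjusted p = 9.43e-05) and Cdh11 (-0.98, adjusted p = 0.00277) were also lower in surface ectoderm-like cells, and Vim (0.82, adjusted p = 2.04e-05) and Epcam (0.70, adjusted p = 0.00499) were higher. Snai2 was higher too (2.01, adjusted p = 4.32e-07), at 8.652, 15.65 and 13.55 CPM against 2.96 ± 0.524, but with only cells that met a single list its log2 fold was -0.11 (adjusted p = 0.996, the highest of alternatives that began at 2.39e-12). Cdh1 did not pass (0.22, 95% interval -0.28 to 0.72, adjusted p = 0.707), nor did Snai1 (-0.08, -0.66 to 0.51) or Twist1 (-0.53, adjusted p = 0.212, and 0.0307 without the filter on low counts, with a log2 fold of 0.22 in cells of a single list). Cdh11 was lost without embryo 1 (0.205) and Epcam without embryo 2 (0.188). With cells of a single list, Cdh2 reached -2.10, Cdh11 -4.66, Zeb1 -2.64 and Zeb2 -3.11.

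In these ectodermal classes 14 of 19 junction and keratin genes were higher in surface ectoderm-like cells (median over the list 1.52, over all genes -0.02), among them the claudin Cldn4 (3.50) and the keratins Krt8 (2.44) and Krt19 (2.40). All 7 epithelial regulators were higher (median 2.63), with Esrp2 at 3.18, Ovol1 at 3.12 and Grhl2 at 2.71. P-cadherin, Cdh3, was the only one of the other cadherins that passed (2.63), and of the catenins Jup (1.25) and Ctnna1 (0.46) did. S100a6 (1.05), Twist2 (1.25) and Lef1 (0.44) were the genes of the mesenchymal lists that were higher.

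LRO-like cells were set against definitive endoderm-like cells, a neighbouring ventral epithelium. Of all genes tested, 33.6% were called, 17.7% higher and 16% lower in LRO-like cells, against all 10 genes, 8 higher and 2 lower. The largest log2 fold was that of Zeb2, at 3.60 (SE 0.166, adjusted p = 6.88e-19), from 9.663, 6.171 and 10.64 CPM in endoderm-like to 135.5, 111.9 and 90.43 CPM in LRO-like cells. Zeb1 (2.81, adjusted p = 9.75e-09), Cdh2 (2.80, adjusted p = 5.59e-14), Cdh11 (2.19, adjusted p = 9.46e-09), Twist1 (2.12, adjusted p = 2.21e-08), Snai2 (2.02, adjusted p = 3.97e-05), Snai1 (1.86, adjusted p = 1.37e-05) and Vim (0.98, adjusted p = 7.1e-07) were higher in LRO-like cells as well. Epcam was lower (-2.42, SE 0.193, adjusted p = 9.23e-13) in all 3 embryos.

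Cdh1 was only just past the threshold (-0.67, SE 0.255, adjusted p = 0.0405). The ranges of LRO-like and endoderm-like cells overlapped between embryos, while within each embryo LRO-like cells were lower (108.5 against 148.4, 47.51 against 95.31 and 70.91 against 106 CPM). With the embryo as a block the log2 fold was -0.69 (adjusted p = 0.00107). Without the block it did not pass with DESeq2 size factors (0.0583), in DESeq2 (0.0676), without embryo 1, 2 or 3 (0.064, 0.0781 and 0.162), with 4 of 5 markers (0.073), without the highest doublet scores (0.0863) or with classes set on thinned cells (0.282). In the last setting Snai2 turned to -0.78 (adjusted p = 0.581, against 1.24e-07 at the other end of its alternatives) and Cdh11 was at 1.47. Without the highest doublet scores Cdh11 was at 2.90, Zeb1 at 4.16 and Zeb2 at 4.26.

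Markers of other classes were present in the LRO-like sums and are given as measured. The summed caudal epiblast list, which like the axial list holds T, was at 603 to 916 CPM in LRO-like cells, against 521 to 683 CPM in its own class. The neural plate border list was at 110 to 217 CPM, against 81.7 to 267 CPM in its own class, with 2 of 5 markers at 0. The summed presomitic list was at 109 to 204 CPM, against 400.1 to 504 CPM in its own class, with all 5 markers detected, and the paraxial list at 116 to 148 CPM. The definitive endoderm list, which like the axial list holds Foxa2, was at 142 to 260 CPM, against 1092 to 1159 CPM in its own class. The neural plate list was at 146 to 170 CPM, against 469 to 550 CPM in its own class. The extraembryonic endoderm list was at 113 to 415 CPM, against 12059 to 13207 CPM in its own class. The erythroid list was at 0.5 to 5.36 CPM, with 1 of 5 markers at 0. The part of these lists in the levels of Snai1, Twist1 and Cdh11 in LRO-like cells was not tested. Of 19 junction and keratin genes, 14 were lower in LRO-like than in endoderm-like cells (median -1.39, over all genes -0.01), with Cldn4 at -3.52, Cldn7 at -3.42, Cgn at -3.26 and Crb3 at -3.15. Of 7 epithelial regulators 4 were lower (Ovol2 -3.04, Esrp2 -2.08) and Klf5 was higher (1.03), and 5 of 6 mesenchymal regulators were higher (median 1.59; Mesp1 2.60, Twist2 2.42, Lef1 1.62). Of 16 matrix and surface genes 6 were lower, with Sparc at -1.62, and Pdgfra was higher (1.97).

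LRO-like and axial mesoderm-like cells are the 2 midline classes. Of all genes tested, 8.63% were called, 6.12% higher and 2.51% lower in LRO-like cells, against 2 of the 10 genes, 1 higher and 1 lower. Epcam was lower in LRO-like cells (-0.85, SE 0.202, adjusted p = 0.00412), with no overlap between the embryos given earlier. Cdh11 was higher (1.04, SE 0.313, adjusted p = 0.03), at 20, 25.29 and 17.13 CPM against 8.119, 9.152 and 12.55 CPM. Epcam was lost without embryo 1 (0.0929) or 2 (0.0605), and Cdh11 without embryo 1 (0.25) or 2 (0.192), with 4 of 5 markers (0.128) and with classes set on thinned cells, where its log2 fold was -0.32 (adjusted p = 0.795, the highest of its alternatives). Neither cadherin of the pair differed past the threshold, Cdh1 at -0.35 (95% interval -0.91 to 0.21, adjusted p = 0.582) and Cdh2 at 0.14 (-0.24 to 0.53, adjusted p = 0.793). Zeb2 was at 0.10 (-0.20 to 0.40). Snai1 (0.83, 0.06 to 1.60, adjusted p = 0.231) and Snai2 (1.18, 0.23 to 2.13, adjusted p = 0.146) had wide intervals and did not pass. Snai2 turned to -1.72 with classes set on thinned cells (adjusted p = 0.299), and without embryo 1 Cdh2 was at -0.012 and Zeb2 at -0.086. Of the related genes, 7 of 19 junction and keratin genes were lower in LRO-like cells (median over the list -0.52, over all genes 0.02; Krt19 -2.11, Cgn -1.81), as was Sparc (-0.80), while Fn1 (0.56) and Lef1 (0.72) were higher.

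Across the 14 class means of log2 CPM, Cdh1 and Epcam ran together (Pearson's r = 0.93) and Epcam ran opposite to Zeb1 (-0.91) and Twist1 (-0.89). Cdh1 and Cdh2 were not simple opposites (r = -0.24). The genes most like Cdh1, among those outside the member and marker lists with at least 20 CPM in a class, were Hook1 (0.97), St14 (0.97), Esrp1 (0.95), Pick1 (0.94) and Mpp7 (0.93). Those most like Cdh2 were Ik (0.92), Sept6 (0.90), Car3 (0.90), Tspyl1 (0.89) and Ccnk (0.89). The points of these correlations share 3 libraries and their depths, so they describe these classes only.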

How the data were processed

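Single-cell RNA libraries of 3 wild-type embryos were analysed from the deposited UMI count matrices, which per the labels and the study's methods the authors made with Cell Ranger 3.1.0 (mm10 with an added EGFP sequence). Deposited counts were not normalized. Cells were kept by the study's limits (at least 1500 and at most 8500, 7500 and 8500 genes in embryos 1, 2 and 3, at most 10% mitochondrial UMIs) and with at least 0.5% mitochondrial UMIs, which removed 573 cells. No deposited column of another series was used. Scrublet called 1 doublet in each library and so did not work, and leaving out the top 6% of doublet scores (1390 kept cells) was an alternative. UMIs give 1 tag a molecule from the 3′ end, and capture may differ between transcripts. Values of different genes, such as those in the Cdh1 share, were therefore not read as ratios of molecules or proteins.

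A cell was put in a class when at least 3 of its 5 markers had a UMI, and the class met with the highest mean of log2(1 + UMIs per 10000), each marker divided by its SD, was taken. UMIs were summed per class and embryo, and classes with fewer than 10 cells in an embryo were not tested. Contrasts were fitted with edgeR 4.0.16 (glmQLFit, TMM, filterByExpr) in R 4.3.3 and adjusted over all genes by Benjamini-Hochberg. Alternatives were DESeq2, DESeq2 size factors, all counts without the filter, cells of low mitochondrial share kept, a block for the embryo, leaving out each embryo, 4 of 5 markers, only cells that met 1 list, classes on cells thinned to 5000 UMIs, and no top doublet scores. The script was tested on simulated data. Same-numbered sums come from 1 embryo, and their deviations from the class means correlated by 0.0017 to 0.452. Intervals are 1.96 standard errors to each side and, unlike the adjusted p-values, are not adjusted over genes. Total kept UMIs were 191843539, 144790573 and 165506028; the total sets the counting error of low genes in small classes.

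All 10 genes were named in each comparison, the genes of related lists by counts with up to 4 of the largest absolute folds, and the 5 genes most like Cdh1 and Cdh2 by correlation. The members, markers and lists were chosen with earlier results of these data known. Python 3.11.15, numpy 2.4.6, pandas 2.3.3, scipy 1.17.1 and scanpy 1.11.5 were used. Gene positions are from GENCODE vM21 on GRCm38, and promoter windows from RefSeq on GRCm38.p6.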

Additional observations from a re-analysis of the deposited data

How the results depend on the processing

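Leaving out an embryo gave counts of called genes of 335 to 519 for caudal epiblast against presomitic mesoderm (811 with all embryos), 416 to 546 for presomitic against paraxial mesoderm (881), 881 to 1012 for surface ectoderm against neural plate (1607) and 379 to 993 for LRO against axial mesoderm (1204), the lowest of these without embryo 1, 1, 2 and 1. With the embryo as a replicate block, counts were 1620 for caudal epiblast against presomitic mesoderm and 1507 for presomitic against paraxial mesoderm, and the block changed no call of the 10 genes other than the 3 given with the results. With only cells that met 1 list, surface ectoderm against neural plate gave 829. Among the 10 genes and 6 comparisons, 623 recomputed values kept their side of the threshold and direction, 37 no longer passed, 10 newly passed and 10 changed sign. Of these 10, 3 had been called, with log2 folds of -0.11 for Snai2 in surface ectoderm against neural plate (cells of 1 list), -0.78 for Snai2 in LRO against definitive endoderm and -0.32 for Cdh11 in LRO against axial mesoderm (classes on thinned cells). The other 7 had not been called. Leaving out an embryo in turn gave -0.68 to 0.10 for Snai2 in caudal epiblast against presomitic mesoderm, -0.015 to 0.14 for Zeb2 in presomitic against paraxial mesoderm, and -0.012 to 0.23 for Cdh2 and -0.086 to 0.19 for Zeb2 in LRO against axial mesoderm, with the changed sign without embryo 1. Twist1 in surface ectoderm against neural plate was 0.22 (cells of 1 list), and with classes on thinned cells Snai2 was 0.53 in caudal epiblast against presomitic mesoderm and -1.72 in LRO against axial mesoderm. The cause of these changes was not tested.

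Of the recomputed class levels of the 10 genes, 202 moved by over 1 SD and 1018 did not. With only cells that met 1 list, 78 moved and 42 did not. There Cdh1 had 14.4 CPM in presomitic, 6.73 in paraxial and 5.42 in cranial mesoderm-like cells, against 23.6, 16.2 and 15.4 CPM in full classes. Cdh2 had 139 CPM in axial mesoderm-like cells, against 83.5 CPM in the full class. The Cdh1 share of Cdh1 and Cdh2 UMIs moved by over 1 SD in 18 of its recomputed values. With only cells that met 1 list it was 89.2% in surface ectoderm-like and 97.2% in extraembryonic endoderm-like cells. In the same setting it was 12.8% in presomitic, 11.8% in paraxial, 9.91% in cranial and 9.47% in cardiac mesoderm-like and 18.6% in lateral mesenchyme-like cells. With classes on thinned cells it was 18.9% in paraxial, 16.6% in cranial and 6.82% in allantois-like cells. Counted in cells thinned to 5000 UMIs it was 18.1% in paraxial and 17.7% in cranial mesoderm-like, 16.8% in lateral mesenchyme-like and 4.33% in allantois-like cells. Without the highest doublet scores it was 91.4% in definitive endoderm-like, 97.1% in extraembryonic endoderm-like and 2.99% in allantois-like cells, and with 4 of 5 markers 9.91% in allantois-like cells. Surface ectoderm-like cells were too few in an embryo for tests with 4 of 5 markers or thinned classes, and no LRO-like cell met 1 list only. Allantois-like cells that met 1 list only were also too few in an embryo for tests. Depth differed between embryos and LRO-like sums held 63 to 84 cells, so low genes such as Snai2 have wide intervals there.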

Other observations

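Within the LRO-like class, cells with a Nodal UMI after thinning, a gene of the crown around the pit, numbered 30, 11 and 19, against 34, 44 and 63 without. Cdh1 was at 130, 89.1 and 90.2 CPM in cells with Nodal and at 90.4, 42.6 and 65.2 CPM in the others, higher with Nodal in all 3 embryos. Cdh2 was at 126, 95 and 70.4 CPM against 97.7, 93.3 and 70.4 CPM, and Cdh11 at 12, 0 and 14.4 CPM against 26.7, 29.9 and 18 CPM. These splits were not tested, and the small cell numbers limit them.

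Zeb2 was present in 35.3% ± 12.9 of thinned erythroid-like cells, where Cdh1 was in 0.726% ± 0.631 and Cdh2 in 1.18% ± 1.03. Erythroid-like cells held 88.3 ± 35.2 CPM of Zeb2 and 7.63 ± 6.68 CPM of Zeb1, with 2 cells in embryo 1.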
